A study of Mus musculus with 10 samples.

Results

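MicroRNA genes were followed at the RNA polymerase II peaks of mouse Th1 cells before and after restimulation. The members were every gene whose symbol in the deposited tables of promoter peaks began with Mir and a digit, or with Mirlet, and they numbered 134 of the 10419 genes with a promoter peak in any library. The assay was ChIP-seq, which sequences the DNA bound to an immunoprecipitated protein, here with the antibody 8WG16 (ab817) in primary Th1 cells from Balb/c DO11.10 mice, a strain whose T cells carry a transgenic receptor. Peripheral CD4+ cells had been primed under Th1 conditions, expanded with an analogue of interleukin 2 and rested for a day without it. The 3 groups of 2 libraries were cells not restimulated (NR), and cells restimulated for 30 min or for 2 h with plate-bound anti-CD3 (5 µg/ml) and soluble anti-CD28 (2.5 µg/ml). All groups share the strain, the transgenic receptor and the priming. Whether the 2 libraries of a group stem from different animals or cultures is not given in the labels. The p-values therefore measure no more than how far these libraries differ, and that may be technical. In such bulk samples a change in the share of cells that carry polymerase at a gene and a change in the amount per cell cannot be told apart.

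A microRNA is cut from a longer transcript that polymerase II makes either from a gene of its own or from the gene in whose intron the hairpin lies. The seed, a short stretch near the 5′ end, pairs with target messenger RNAs and lowers their translation and stability. In T cells, miR-155 is induced on activation, the miR-17~92 cluster promotes proliferation, miR-142 is typical of blood cells, miR-21 rises in activated cells, and miR-150 is abundant in resting lymphocytes and declines on activation. An annotated microRNA gene is usually the hairpin alone, so a peak close to it may be that of a neighbouring or host gene, and the start of the primary transcript may lie elsewhere.

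The 21 mature sequences below, from RefSeq (GRCm38.p6, the assembly of mm10), have the seed (bases 2 to 8) in capitals. They are encoded at the T cell loci on which the results turn, apart from miR-339-5p, whose gene was not listed as a T cell microRNA gene. They hold 16 seeds.
mmu-miR-155-5p: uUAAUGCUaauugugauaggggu
mmu-miR-17-5p: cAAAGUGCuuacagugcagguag
mmu-miR-20a-5p: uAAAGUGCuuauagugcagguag
mmu-miR-106b-5p: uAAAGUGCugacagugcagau
mmu-miR-18a-5p: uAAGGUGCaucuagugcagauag
mmu-miR-92a-3p: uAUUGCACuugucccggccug
mmu-miR-25-3p: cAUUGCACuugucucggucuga
mmu-miR-132-3p: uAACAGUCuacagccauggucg
mmu-miR-212-3p: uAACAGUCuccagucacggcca
mmu-miR-23a-3p: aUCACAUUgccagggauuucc
mmu-miR-27a-3p: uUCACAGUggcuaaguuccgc
mmu-miR-24-3p: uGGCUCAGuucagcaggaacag
mmu-miR-142a-5p: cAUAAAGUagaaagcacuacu
mmu-miR-142a-3p: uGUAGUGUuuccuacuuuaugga
mmu-miR-142b: uCCAUAAAguaggaaacacu
mmu-miR-21a-5p: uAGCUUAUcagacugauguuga
mmu-let-7g-5p: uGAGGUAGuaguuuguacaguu
mmu-let-7i-5p: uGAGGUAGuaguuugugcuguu
mmu-miR-148a-3p: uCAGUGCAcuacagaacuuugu
mmu-miR-146a-5p: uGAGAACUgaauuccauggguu
mmu-miR-339-5p: uCCCUGUCcuccaggagcucacg
One seed was shared by miR-17-5p, miR-20a-5p and miR-106b-5p, which come from separate clusters on chromosomes 14 and 5. Another was shared by miR-92a-3p and miR-25-3p of the same clusters, another by miR-132-3p and miR-212-3p, which are neighbours on chromosome 11, and another by let-7g-5p and let-7i-5p. Over all members, 199 mature sequences of 124 genes matched the RefSeq table and held 192 seeds, of which 7 were shared by 2 or more genes.

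The deposited tables hold no read counts, so the sequencing depth behind a peak is unknown. The value compared was called length, the base pairs of DNA that the authors called as peaks within 1000 bp of a start. It was counted in 2 ways. By assignment, it was the length of the peaks that the authors assigned to the microRNA gene. By region, it was the length called in the merged stretch of promoter peaks around the gene, whichever gene each peak was assigned to. A fold enrichment, the authors' ratio of a peak's summit to its local background, was used to rank a peak among the promoter peaks of its own library. The libraries held 8058 to 9704 genes with a promoter peak each. In every group the second library held more genes and longer peaks than the first, and the deposited pileups were whole numbers in the first library of each group and not in the second.

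Member genes with a peak numbered 66 and 85 in the NR libraries, 72 and 110 in the 30 min libraries, and 94 and 105 in the 2 h libraries. They were between 0.79% and 1.13% of the genes of their library. A peak was present in all 6 libraries for 52 members (38.8%, against 71.1% of all genes), in 5 libraries for 14, in 4 for 11, in 3 for 16, in 2 for 17 and in 1 library for 24. Of those 24, 17 had it in the second library of a group. The 110 members called in 2 or more libraries were fitted. A member with peaks in 1 group alone passed that filter through the group where it was high, so counts over those fitted describe the members that passed and not all 134. The member peaks lay in 138 merged regions, and 11 members shared their main region with another member.

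Most of these genes lie inside or beside other genes. Of the 134, 99 (73.9%) overlapped a gene other than a microRNA gene in RefSeq and 92 (68.7%) a protein-coding one. Of 131 members on chromosomes with a start table, 47 (35.9%) lay within 1000 bp of the start of such a gene, against 102 of 1005 (10.1%) of all RefSeq hairpins. This follows in part from how the tables were made, since they hold peaks at starts. By the starts in the deposited tables themselves, the share of member peaks that also covered the start of a gene overlapping or within 1000 bp of the member was 4.23% in NR library 1 (95% Clopper-Pearson interval 0.88 to 11.9%), 12.2% in NR library 2 (6.26 to 20.8%), 7.69% in 30 min library 1 (2.88 to 16.0%), 20.2% in 30 min library 2 (13.4 to 28.5%), 18.4% in 2 h library 1 (11.5 to 27.3%) and 20.9% in 2 h library 2 (13.7 to 29.7%). A table lists a start only if a peak was assigned to that gene. With the starts of all genes from RefSeq, a measure chosen after seeing the data, the share lay between 44.0% and 46.7% in all 6 libraries. The intervals cover counting error only.

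The peaks with another gene's start inside them ranked higher and were longer. Their median fold enrichment percentile was 81.1 and 75.4 in the NR libraries, 80.3 and 74.4 in the 30 min libraries, and 77.6 and 73.4 in the 2 h libraries. For the member peaks without such a start it was 34.5 and 22.2 in NR, 41.1 and 17.5 at 30 min, and 16.6 and 15.7 at 2 h. The medians of the 2 kinds of peak thus stood apart in every library. Median length over the libraries was 1153.5 to 2298 bp with such a start and 629 to 1086 bp without one. A longer peak is more likely to hold a start, so the difference in length follows in part from the split. Of the 18 members in a list of microRNA genes with a known role or high level in T cells, none had another gene's start inside any of its peaks. Of the 116 other members, 56 (48.3%) had none. This contrast depends on the authors' naming, since a peak assigned to another gene was not counted for the microRNA. Mir191 and Mir425 of the T cell list lay in peaks assigned to Ndufaf3 and so were not members. The region of Mir150 held only peaks assigned to Rpl13a in 30 min library 2 and in both 2 h libraries.

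**Figure D1:**
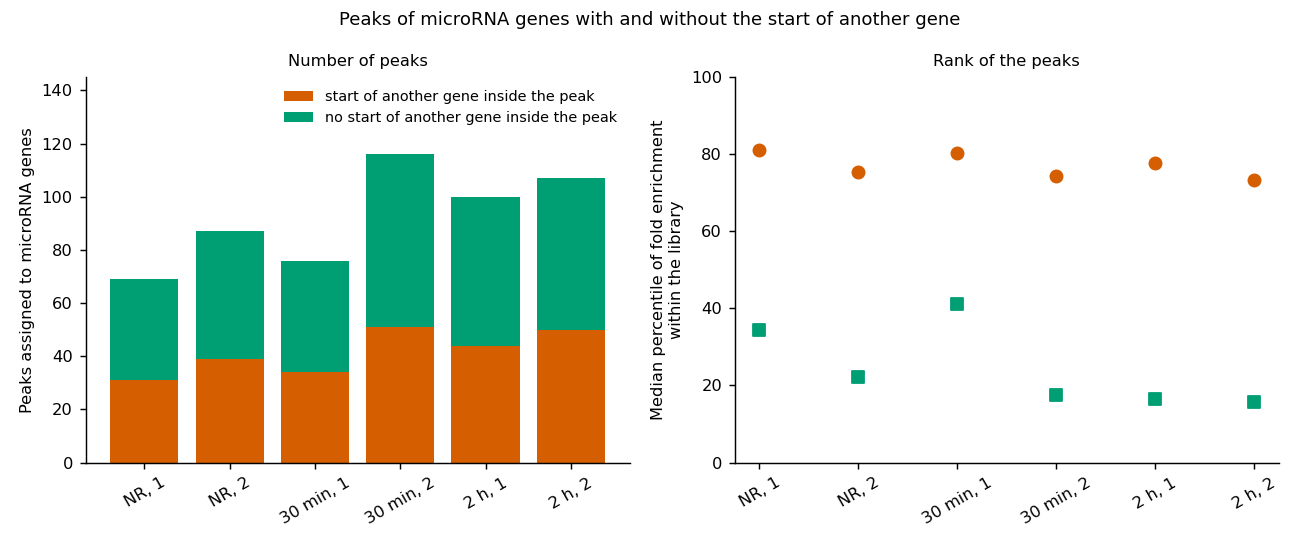
Number of peaks assigned to microRNA genes in each library (left, stacked bars) and the median percentile of their fold enrichment among all promoter peaks of the same library (right), split by whether a RefSeq start of a gene other than a microRNA gene lies inside the peak. Peaks with such a start have medians from 73.4 to 81.1, and peaks without one from 15.7 to 41.1.

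Mir155hg (chr16:84713023-84715244, plus strand, mm10) is the annotated host transcript of miR-155, whose hairpin lies inside it. No promoter peak was assigned to it in either NR library or in 30 min library 1. It held 1600 bp in 30 min library 2, 5342 bp in 2 h library 1 and 17245 bp in 2 h library 2. The 2 h libraries thus stood above the others, and differed from each other by more than the 30 min library 2 differed from NR. The miR-155 hairpin was inside the called peak in both 2 h libraries and in no other. Called length averaged 11293.5 ± 8420 bp at 2 h and 0 ± 0 bp in NR (SD, n = 2 each), a log2 change of 6.14 by region (SE 1.09) with an adjusted p of 0.106 in limma, which missed the threshold of 0.05. With a group at 0 such a value depends on the 100 bp added before the log.

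The list of all summits, which also holds peaks away from starts, shows that polymerase was called at this locus without restimulation. A summit lay 9.64 and 9.65 kb upstream of the annotated start of Mir155hg in the NR libraries, 9.65 and 9.63 kb upstream at 30 min, and 9.64 and 9.66 kb upstream at 2 h. Among all summits of its own library by −log10 q, it stood at percentile 86.3 and 85.8 in NR, 94.3 and 96.9 at 30 min, and 99.1 and 99.9 at 2 h, ranks that come from lists of different lengths and are a description only. It was outside the promoter table in 5 libraries. In 2 h library 2 the peak around it ran without a gap from 10.9 kb upstream to 6.34 kb downstream of the annotated start, and so entered the table with all of its 17245 bp. Mir155hg thus entered the promoter table after restimulation, at a locus with a called peak in all 6 libraries. In 30 min library 2 it did so through 2 short peaks that did not hold the hairpin. These ran from 1.6 to 0.48 kb upstream and from 0.27 kb upstream to 0.206 kb downstream of the annotated start. In 2 h library 1 the peak ran from 3.68 kb upstream to 1.66 kb downstream, apart from the far upstream summit.

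The miR-17~92 cluster on chromosome 14 was described by 3 members, Mir17 (chr14:115043671-115043754), Mir18 (chr14:115043851-115043946) and Mir17hg (chr14:115044305-115046728), all on the plus strand and in 1 merged region. That region held no called promoter length in either NR library, 872 and 8649 bp at 30 min, and 6490 and 8967 bp at 2 h. Its groups did not overlap at 2 h against NR or at 30 min against NR. The log2 change by region was 5.81 at 2 h (SE 0.73, adjusted p 0.051 in limma) and 4.72 at 30 min (SE 0.73, adjusted p 0.1), so neither passed. The change at 30 min was 5.92 without 30 min library 1 and 3.51 without 30 min library 2. The change at 2 h lay between 5.65 and 5.97 with a library left out. A fit without a 30 min library leaves a single library in that group, so the difference between the 30 min libraries drops out of its estimate of spread. The authors' assignment moved along the cluster. The peaks went to Mir17 in 30 min library 1, to Mir17 and Mir18 in 30 min library 2, to Mir18 and Mir17hg in 2 h library 1 and to Mir18 in 2 h library 2. As a result Mir17 had 0 bp assigned at 2 h although its region was longest then. Here too the summit list held peaks without restimulation, 2.7 and 1.43 kb upstream of the Mir17 hairpin in NR library 1 and 2.69 and 1.54 kb upstream in NR library 2. The hairpins of Mir18, Mir19a and Mir20a were inside a promoter peak in 30 min library 2 and both 2 h libraries, and in no NR library.

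**Figure D2:**
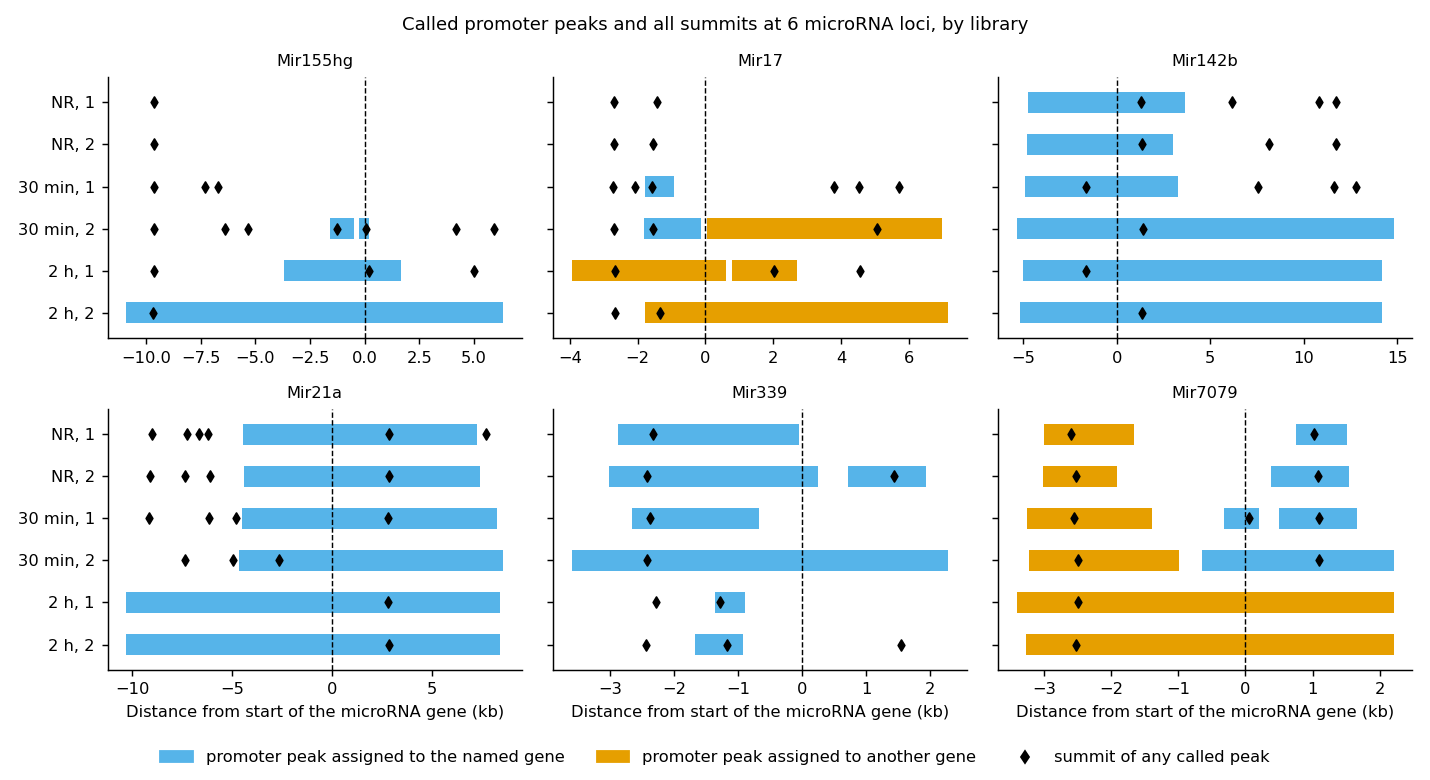
Called promoter peaks (bars) and the summits of all called peaks, promoter or not (diamonds), in 6 regions, by library from NR at the top to 2 h at the bottom, with the distance in kb from the start of the microRNA gene along its strand on the x axis. At Mir155hg, Mir17, Mir142b and Mir21a, summits called in NR lie inside stretches that later libraries cover with longer bars. At Mir339 the summit 2.29 to 2.44 kb upstream is present at 2 h without a promoter bar, and at Mir7079 the 2 h bars are assigned to another gene.

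The cluster of Mir23a (chr8:84208518-84208592, plus strand), miR-27a and miR-24-2, which is also transcribed as a unit, showed the same kind of change. Its region, shared with Mir3074-2 (annotated on the opposite strand within the cluster), held 538 and 740 bp in NR, 1717 and 12767 bp at 30 min, and 3072 and 12047 bp at 2 h. The groups did not overlap in either comparison with NR, but the second library of each restimulated group was far longer than the first. Here too a summit was called without restimulation, 7.91 and 8.0 kb from the start of Mir3074-2 and upstream of Mir23a. In NR it was outside the promoter table, at percentile 94.2 and 95.8 by −log10 q. The long peaks of 30 min library 2 and 2 h library 2 had their summits there, at 7.96 and 7.98 kb. The log2 change was 2.62 at 2 h (SE 0.8, adjusted p 0.289 in limma) and 2.57 at 30 min (SE 0.8, adjusted p 0.458), the second being 3.61 without 30 min library 1 and 1.54 without 30 min library 2. By assignment Mir23a was lost at 2 h and Mir3074-2 gained, because the same region changed its assigned name. Mir132 (chr11:75173682-75173747) and Mir212 (chr11:75173388-75173478), neighbours on the plus strand with a shared seed and known as targets of the factor CREB in neurons, had a common region of 293 and 703 bp in NR, 0 and 2307 bp at 30 min, and 1696 and 2184 bp at 2 h. At 2 h both libraries stood above both NR libraries, with a log2 change of 1.39 (SE 1.16, adjusted p 0.626 in limma).

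**Figure D3:**
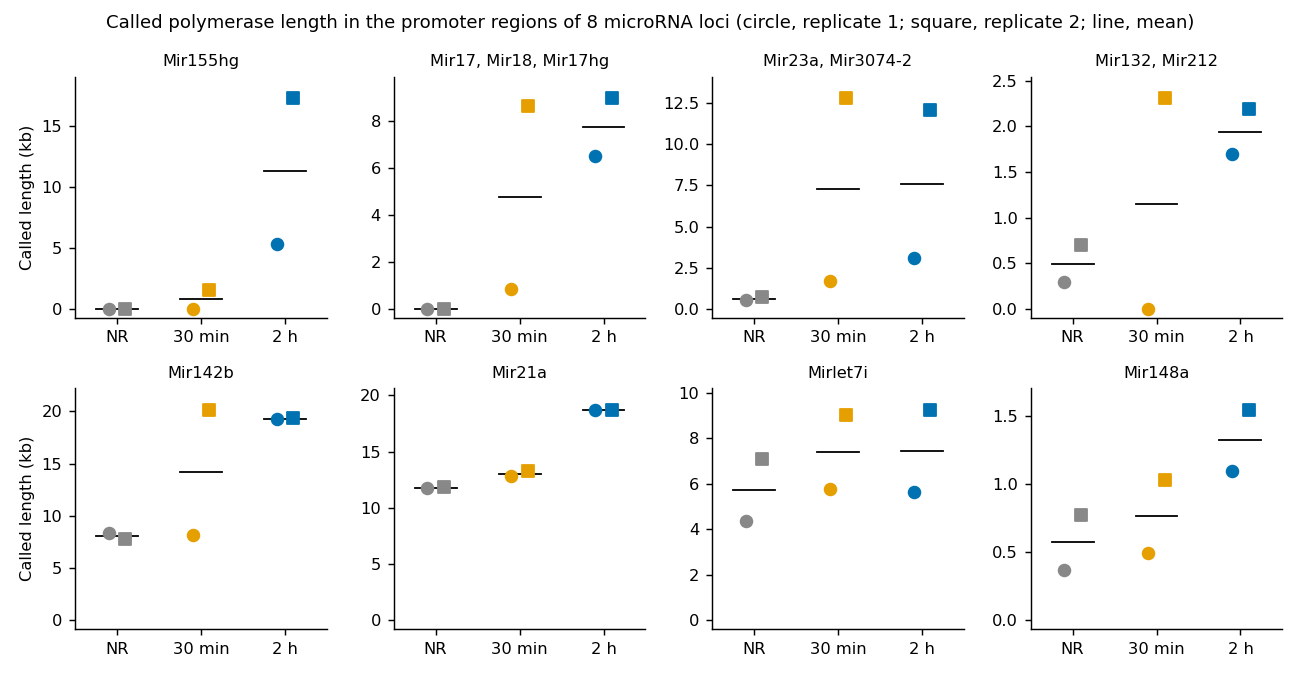
Called length in kb, by region, at 8 microRNA loci in the 3 groups. Circles are replicate 1, squares replicate 2 and lines the mean of the 2 libraries. Mir155hg and the Mir17 region are at 0 in both NR libraries, and Mir21a lies between 11724 and 13238 bp in NR and at 30 min and at 18717 and 18725 bp at 2 h.

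Other T cell microRNA loci carried long peaks in every library. Mir142b (chr11:87756841-87756955, minus strand) is annotated opposite the miR-142 hairpin, so reads without strand cannot separate them, and miR-142b is the reverse strand of a stretch of miR-142a-3p. Its peak covered 8404 and 7807 bp in NR, 8154 and 20163 bp at 30 min, and 19252 and 19354 bp at 2 h, and held the miR-142 hairpin in all 6 libraries. Both 2 h libraries were above both NR libraries, whereas the 30 min libraries were split between the NR level and the 2 h level. The log2 change was 0.78 at 2 h (SE 0.43, adjusted p 0.484 in limma). Along the strand of Mir142b, summits 6.17 to 11.7 kb downstream were called apart from the promoter peak in NR. The peaks at 2 h ran to 14.2 kb in the same direction. The miR-142 hairpin is on the plus strand, so this stretch lies upstream of it.

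Mir21a (chr11:86584067-86584158, minus strand), in the 3′ part of the gene Vmp1, had 11724 and 11826 bp in NR, 12817 and 13238 bp at 30 min, and 18717 and 18725 bp at 2 h. The 2 libraries of each group lay close together, and the 2 h libraries stood above all others. The log2 change after centring on all genes was 0.2 (SE 0.49, adjusted p 0.872 in limma), and 0.05 to 0.35 with 1 library left out. In NR its peak ended 4.46 and 4.39 kb upstream of the hairpin, with separate summits 6.09 to 9.13 kb upstream, and at 2 h it ended 10.3 kb upstream in both libraries. Mirlet7i (chr10:122985640-122985724, minus strand), of the let-7 family that restrains proliferation and growth genes, had 4380 and 7113 bp in NR, 5756 and 9031 bp at 30 min, and 5663 and 9262 bp at 2 h. Its groups overlapped, and its fold enrichment ranked at percentile 89.7 to 98.8 in all libraries.

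Shorter peaks made up the remainder of the T cell list. Mir148a (chr6:51269812-51269910, minus strand), known to be induced in repeatedly stimulated Th1 cells, had 374 and 775 bp in NR, 497 and 1030 bp at 30 min, and 1098 and 1548 bp at 2 h. Both 2 h libraries were above both NR libraries, with a log2 change of 0.66 (SE 0.26, adjusted p 0.366 in limma), and of 0.38 without NR library 1. Mir210, a target of the hypoxia response, had a peak of 399 to 1144 bp in 5 libraries and none in 30 min library 1. Mir106b and Mir25, which lie in the gene Mcm7, and Mir200c had promoter peaks in 30 min library 2 and 2 h library 2 alone, at 562 to 1328 bp. In the region of Mir25 the summit list also held a summit outside the promoter table in 30 min library 1 (−log10 q 12.3) and in 2 h library 1 (4.92). Mirlet7g, in Wdr82, was called in NR library 2 and in 30 min library 2 at fold enrichment percentiles of 8.1 and 8.7. Mir146, the gene of miR-146a, a brake on NF-kB signalling, had a single peak of 488 bp in 2 h library 2. Of 96 listed T cell microRNA genes, 88 were matched, 18 were members, and 10 others had their hairpin inside a promoter peak under another name. These 10 were Mir142, Mir155, Mir19a, Mir20a, Mir19b-1, Mir92-1, Mir27a and Mir24-2 at the loci above, and Mir191 and Mir425 in peaks assigned to Ndufaf3. The hairpins of 60 were in no promoter peak.

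Across all members, few differences between groups passed the test. At 2 h against NR, limma with Benjamini-Hochberg adjustment over 9908 genes called 0 members longer (0.373% of all genes tested) and 2 shorter (0.0606%), Mir339 and Mir7079. By region it called 0 longer (0.448%) and 1 shorter (0.00975%), Mir339. At an unadjusted p under 0.05 there were 23 of 110 members (20.9%, against 12.6% of all genes) by assignment and 24 of 115 member regions (20.9%, against 13.3%). The 2 groups did not overlap for 60 members that were higher at 2 h (54.5%, against 52.3%) and 6 that were lower (5.45%, against 2.09%), and for 72 member regions that were higher (62.6%, against 52.8%) and 1 that was lower (0.87%, against 1.57%). At 30 min against NR no member was called by assignment, where the background was 0.232% longer and 0.0101% shorter, or by region, where it was 0.166% longer and 0.0% shorter. At an unadjusted p under 0.05 there were 11 members (10%, against 8.0%) and 15 of 115 member regions (against 8.46%). The groups did not overlap for 29 member regions that were higher (25.2%, against 11.6%) and 0 that were lower (0.526% of all regions). Between 2 h and 30 min no member was called by either measure and the background was 0.0%, with 8 members (7.27%, against 5.18%) and 7 member regions (6.09%, against 5.04%) at an unadjusted p under 0.05. There, 22 member regions were higher at 2 h without overlap (19.1%, against 17.0%) and 1 was lower (0.87%, against 0.702%).

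The median log2 change of the fitted members was 0.28 at 2 h against NR by assignment and 0.21 by region, beside −0.03 and −0.02 for all features tested. At 30 min against NR it was 0.32 and 0.17, beside −0.04 and −0.03. Centring had removed a shift of all genes by 0.48 at 2 h against NR and 0.16 at 30 min against NR. Between the first libraries and again between the second libraries, 66.4% of the member regions were longer at 2 h than in NR and 1.56% were shorter, against 70.3% and 4.7% of all merged regions. At 30 min against NR 41.4% were longer and 0.781% shorter, against 33.3% and 5.7% of all merged regions. At 2 h against 30 min 35.9% were longer and 5.47% shorter, against 48.2% and 4.4%. The counts moved with single libraries. Each fit that leaves out a library has a group with a single library, whose spread drops out of the estimate. A higher count in such a fit is therefore no support for the members called. At 2 h against NR the count by assignment was 0 without NR library 1, without 2 h library 1 or without 2 h library 2, 1 without NR library 2, 13 without 30 min library 1 and 14 without 30 min library 2. By region it was 0 without NR library 1 or either 2 h library, 8 without 30 min library 1 and 7 without 30 min library 2. At 30 min against NR it was 3 by either measure without 30 min library 1, 1 by either measure without NR library 2, and 3 by region without 30 min library 2. Between 2 h and 30 min it was 11 by assignment and 8 by region without 30 min library 2.

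Neither shortening at 2 h was a loss of the polymerase peak from the locus. Mir339 (chr5:139369650-139369745, minus strand), inside the gene 3110082I17Rik, had 2833 and 4484 bp in NR, 1973 and 5880 bp at 30 min, and 466 and 757 bp at 2 h. Both 2 h libraries were below all 4 others, and the fall was present within the first and within the second libraries. Called length averaged 611.5 ± 206 bp at 2 h and 3658.5 ± 1170 bp in NR (SD, n = 2 each), and the log2 change by region was −2.86 (SE 0.29, adjusted p 0.0408 in limma). In NR the peak had its summit 2.33 and 2.42 kb upstream of the hairpin and reached to within 1000 bp of it. In both 2 h libraries the summit list still held this summit, 2.29 and 2.44 kb upstream, but in a peak outside the promoter table, while a separate short peak with its summit 1.28 and 1.18 kb upstream was assigned to Mir339. The rank of the upstream summit by −log10 q was at percentile 97.3 and 98.0 in NR, 80.2 and 92.7 at 30 min, and 62.8 and 70.4 at 2 h, again as a description. The adjusted p by region lay between 0.0595 and 0.295 without any 1 of the NR or 2 h libraries.

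Mir7079 (chr8:123104975-123105043, plus strand), inside the ribosomal protein gene Rpl13, had 756 and 1175 bp assigned in NR, 1678 and 2864 bp at 30 min, and none at 2 h. By assignment the log2 change was −3.86 (SE 0.28, adjusted p 0.0121 in limma). By region the locus held 2095 and 2287 bp in NR, 3553 and 5106 bp at 30 min, and 5625 and 5487 bp at 2 h, and the log2 change was 0.84 (SE 0.18, adjusted p 0.15). At 2 h a single peak assigned to Snord68, a small nucleolar RNA gene of the same host, ran over the start of Mir7079.

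**Figure D4:**
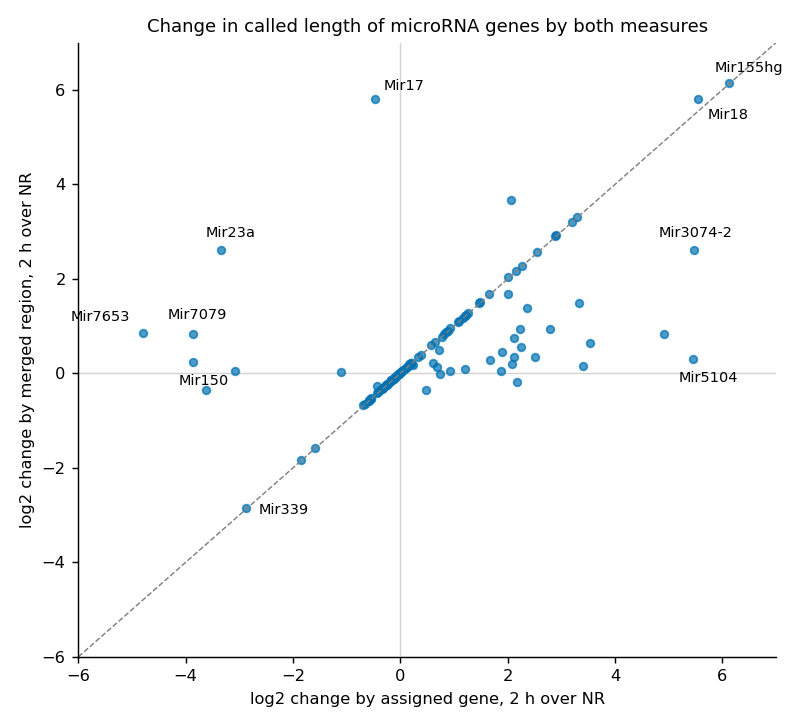
log2 change in called length at 2 h over NR for the 109 members fitted by both measures, by assigned gene (x axis) and by merged region (y axis), with the line of equal values dashed. Members off the line share their region with peaks assigned to other genes, apart from Mir671 and Mir138-2, whose own peaks lie in 2 regions. Mir7079, Mir7653, Mir150, Mir23a and Mir17 are among those below 0 by assignment and above 0 by region.

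The other losses by assignment were of the same kind. A peak was lost, present in both NR libraries and neither 2 h library, for 5 members (3.73%, against 0.662% of all genes): Mir150, Mir219a-1, Mir23a, Mir7079 and Mir7653. By region none of the 5 was lost. Mir150 (chr7:45121757-45121821, plus strand) had 1014 and 885 bp assigned in NR, 1498 bp in 30 min library 1 and none in the other 3 libraries. The absence of an assigned peak thus gives no measure of a loss of polymerase at Mir150, since promoter peaks under other names were called in its region in all 6 libraries. Mir7653 had 1715 and 2112 bp assigned in NR and none at 2 h, in a region that also bore Rpl23a and Snord4a and held 7906 and 8050 bp at 2 h against 2560 and 3908 bp in NR. Mir219a-1, beside Ring1, had 350 and 736 bp assigned in NR and none later, in a region of 1335 to 4609 bp. At 30 min against NR 1 member was lost, Mir219a-1 (0.746%, against 0.365%), and at 2 h against 30 min 2 were lost, Mir17 and Mir7079 (1.49%, against 0.096%), and again none by region, where 0.0182% and 0.0455% of all regions were lost, beside 0.173% at 2 h against NR. Without NR library 1 the count lost at 2 h against NR was 9. The count lost at 30 min against NR was 5 without 30 min library 1, 7 without 30 min library 2, 3 without NR library 1 and 2 without NR library 2. Between 2 h and 30 min it was 4 without 2 h library 2, 13 without 30 min library 1 and 7 without 30 min library 2.

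Peaks gained made up a larger share of the members than of all genes, a difference that was not tested. At 2 h against NR 15 members had a peak in both 2 h libraries and neither NR library (11.2%, against 2.57% of all genes). Of the 15, 10 stood by region. Of the 138 member regions, 10 were gained (7.25%, against 3.03% of all regions). At 30 min against NR 4 members were gained, Mir17, Mir3074-2, Mir5098 and Mir6975 (2.99%, against 0.374%), of which 2 stood by region. Of the member regions, 2 were gained (1.45%, against 0.4% of all regions). Between 2 h and 30 min 3 members were gained, Mir193a, Mir7040 and Mir8113 (2.24%, against 0.71%), of which 2 stood by region, Mir193a and Mir7040. Of the member regions, 3 were gained, those of Mir193a and Mir7040 and a region of Mir3082 (2.17%, against 0.91% of all regions). The count by assignment at 2 h against NR was 29 without 2 h library 1 or without NR library 2, and that at 30 min against NR was 32 without 30 min library 1 and 13 without NR library 2. That between 2 h and 30 min was 9 without 2 h library 1, 8 without 2 h library 2 and 25 without 30 min library 2. Among the 15, the summit list had no summit in either NR library inside the stretch later assigned to 6 members, Mir141, Mir193a, Mir3109, Mir671, Mir684-1 and Mir7040. For 8 it had a summit there in both NR libraries, and for Mir5098 in 1. Over all 268 genes gained in this comparison, 81.7% had no such NR summit. The 6 were short and ranked low, with 248 to 1792 bp by assignment and fold enrichment percentiles of 1.4 to 15.7 at 2 h. Mir193a, for example, had 473 and 679 bp at 2 h and no peak in the other 4 libraries, and Mir7040, in Loxl3, had 511 and 1671 bp at 2 h and none before.

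In Mir5104, Mir6516, Mir7067 and Mir8113 the gained name stood in a region that NR peaks already held under a neighbouring gene. Mir5104 lies in Zc3h12d, a regulator of messenger RNA decay in immune cells, and had 5909 and 6169 bp assigned at 2 h and none in NR, while its region held 5909 and 6169 bp at 2 h and 3378 and 3616 bp in NR. Mir8113 lies in Cd27, a costimulatory receptor of T cells, and its region held 2932 and 4187 bp at 2 h and 1348 and 1830 bp in NR. Mir6769b, in Unc13a, was also among the 15 gained, with none in NR, 0 and 1222 bp at 30 min, and 986 and 1381 bp at 2 h, and the summit list held a summit there in both NR libraries. Mir7649, in the lectin gene Clec2g, had a regional length of 0 and 392 bp in NR, 0 and 480 bp at 30 min, and 862 and 1224 bp at 2 h. Its peak was assigned to it in 2 h library 1 and to Gm15987 in the other 3 libraries that held one. The log2 change by region at 2 h against 30 min was 1.92 (SE 0.89, adjusted p 0.853 in limma), and 1.03 without 30 min library 1. Mir1900, 290 bp from the start of Icam5 and in a region also assigned to Icam4, had a regional length of 0 and 522 bp in NR, 1697 and 5234 bp at 30 min, and 3525 and 5172 bp at 2 h, with a log2 change of 3.67 at 2 h against NR (SE 0.74, adjusted p 0.136 in limma). That change was 2.51 without NR library 1 and 4.83 without NR library 2. Mir5098 had 0 bp in both NR libraries, 618 and 1039 bp at 30 min, and 808 and 1063 bp at 2 h, with an adjusted p of 0.051 by region at 2 h in limma. Its record in the deposited tables spans 203211 bp of chromosome 8 and is the 1 of 113 records whose coordinates differed from its RefSeq hairpin, so the peak cannot be tied to that microRNA.

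The machinery that makes and uses microRNAs was described beside them. Of 25 listed genes of microRNA processing and silencing, 22 had a promoter peak and were fitted, and 0 were called in any of the 3 comparisons. Their median log2 change at 2 h against NR was −0.02, beside −0.03 for all genes tested. At an adjusted p that missed the threshold, Drosha, which cuts the primary transcript, had a log2 change of 0.1 at 2 h against NR, Dicer1, which cuts the hairpin, of −0.24, and Ago2, the effector that binds the mature microRNA, of 1.1 (2261 and 3243 bp at 2 h, against 549 and 1259 bp in NR). Zc3h12a, a ribonuclease that also cleaves microRNA precursors, had 5182 and 5819 bp at 2 h and 773 and 1914 bp in NR, a log2 change of 1.6 (adjusted p 0.281 in limma). Zcchc11, which adds uridines to microRNA precursors, had 1415 and 2291 bp at 2 h and 1790 and 2699 bp in NR, a log2 change of −0.75 (adjusted p 0.394). Ddx5, a helicase that works with Drosha, had 6120 and 0 bp assigned at 2 h and 2436 and 2411 bp in NR. That was a log2 change of −2.15 (adjusted p 0.734 in limma), but the 0 came with a change of assigned name. In 2 h library 2 a peak of 11107 bp that held the start of Ddx5 was assigned to the member Mir3064. The merged region held 9679 and 11107 bp at 2 h and 3581 and 4240 bp in NR. Of the cell type markers, all 9 T cell genes had a peak in all 6 libraries. The 6 myeloid and 3 natural killer cell genes had none, and 1 of 6 B cell genes had one, of 482 bp in 30 min library 2 and 513 bp in 2 h library 2. Of the 2 CD8 T cell genes, Cd8a had none, and Cd8b1 had one of 314 bp in NR library 2, 521 bp in 30 min library 2 and 576 bp in 2 h library 2. The part of other cells in the member values was not tested.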

How the data were processed

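RNA polymerase II ChIP-seq peaks of 6 libraries (NR, 30 min and 2 h, 2 each) were analysed, and 3 libraries for another mark and 1 input library were not. Per the submitters' processing notes, BWA 0.7.13, Picard 1.119, MACS2 2.1.0 and mm10 were used, with no role or order given, and peaks were called per library. Each deposited promoter table gives, per the file headers, a peak's width in bp (other), its pileup signal at the summit, the −log10 p-value and −log10 q-value, and the fold enrichment ratio over local background. The deposited summit lists give the −log10 q of all peaks. These scores were used only inside their own list.

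Called length per gene, or per region of promoter peaks merged where they overlapped by at least 1 bp (10991 regions), was taken as log2(bp + 100), which understates changes of short peaks, and centred per library on the features present in all 6. Features with a peak in at least 2 libraries (9908 of 10419 genes, 10261 regions) were fitted with limma 3.58.1 over all 6 libraries (R 4.3.3, trended prior, Benjamini-Hochberg adjustment, threshold 0.05). The fit was also run on simulated lengths of genes with a peak in all 6 libraries, with a spread set below the observed one. That run held no absent or renamed peaks, so it does not show how the fit performs on the members. A permutation of 2 against 2 libraries cannot give a p under 0.333. The tools behind the gene assignment are not given in the sources used here. Depth is unknown, as the files hold no counts of reads.

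The members and the gene lists were chosen with earlier results of these data known. Named are the members in the T cell list, those called by limma, the 5 with the largest change in each direction among those whose groups did not overlap by region, and those gained or lost. RefSeq starts and sequences (GRCm38.p6) were matched by symbol, and 124 of 134 members had a microRNA sequence. Member starts on chromosome 18 were not analysed against RefSeq. Alternatives were the pseudocount, filter, centring, peak threshold, equal list lengths, merging overlap, a window at the start, a replicate block, fits of 4 libraries and leaving out each library.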

Additional observations from a re-analysis of the deposited data

How the results depend on the processing

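Beside the main counts of members called, other settings gave, at 30 min against NR by region (main 0), 1 with quantile normalisation, 2 with lists of equal length and 1 within 1000 bp of the start. At 2 h against NR by assignment (main 2), the count was 0 without centring, 1 at a −log10 q of at least 5, 5 with lists of equal length and 11 with only the 4 libraries. By region (main 1) it was 4 with a pseudocount of 10 bp, 4 with 1000 bp, 4 with no filter, 3 without centring, 6 with quantile normalisation, 0 at a −log10 q of at least 5, 7 with lists of equal length and 6 with only the 4 libraries. At 2 h against 30 min (main 0) it was 1 by assignment with 1000 bp, 1 with quantile normalisation and 2 with lists of equal length, and 1 by region with lists of equal length. Leaving out each library in turn gave 0 to 3 at 30 min against NR by either measure, 0 to 14 by assignment and 0 to 8 by region at 2 h against NR, and 0 to 11 and 0 to 8 at 2 h against 30 min. The same gave 4 to 32 members gained and 2 to 7 lost at 30 min against NR, 15 to 29 gained and 5 to 9 lost at 2 h against NR, and 3 to 25 gained and 2 to 13 lost at 2 h against 30 min. Peaks lost at 30 min against NR (main 1) were 0 at a −log10 q of at least 5, with lists of equal length or by position. Peaks lost by position were 0 at 2 h against NR (main 5) and 0 at 2 h against 30 min (main 2, and 4 with lists of equal length). Peaks gained at 2 h against 30 min (main 3) were 1 at a −log10 q of at least 5 and 1 with lists of equal length. The share of member peaks covering another start was, for NR libraries 1 and 2, 30 min libraries 1 and 2 and 2 h libraries 1 and 2 in turn, 0.0%, 3.33%, 1.28%, 11.8%, 8.74% and 11.8% when the other gene had to overlap the member, and 44.9%, 44.8%, 44.7%, 44.0%, 44.0% and 46.7% with starts from RefSeq. With a start within 1000 bp of the peak it was 9.86%, 18.9%, 16.7%, 21.8%, 20.4% and 22.7% in the same order. The cause of these differences was not tested, apart from the smaller number of peaks or libraries that an alternative leaves.

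Same-numbered libraries share only a number in the labels, and their deviations from the group means correlated at 0.258 (30 min and NR), 0.19 (2 h and NR) and 0.31 (2 h and 30 min) over 7410 genes. With a replicate block the counts of members called were 2 by assignment and 1 by region at 2 h against NR and 0 in the other comparisons, as in the fits without the block. Among the values of single named members under the alternatives, 2849 kept their direction and side of the threshold, 174 with no test moved by more than the spread between libraries, 100 passed the threshold and 19 lost it, and none turned its direction while called. Mir339 lost its call by region without centring (adjusted p 0.157 in limma), at a −log10 q of at least 5 (0.207) and within 1000 bp of the start (0.187). The number of libraries and the unknown depth limit all of these comparisons. Fits that left out a library held a group with a single library, which adds nothing to the estimate of spread.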
